A study of Mus musculus with 2 samples.

Results

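The Rbfox genes Rbfox1, Rbfox2 and Rbfox3 encode a family of RNA-binding splicing factors, and 263 peaks of the CUT&Tag library were assigned to them, of 99782 annotated peaks in all. Peaks were selected on the gene symbol in the authors' deposited annotation, which places the part of each peak with the highest signal relative to genes. Rbfox1 held 133 of these peaks, Rbfox2 held 29 and Rbfox3 held 101. The genes were chosen with these numbers known, so the numbers are a description. Among 21911 protein-coding genes, for which the median was 2 assigned peaks, Rbfox1 ranked 1, Rbfox3 ranked 2 and Rbfox2 ranked 249 by assigned peaks.

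The libraries came from hippocampal tissue of untreated C57BL/6J mice with the genotype CamK-PARIS, and both libraries shared this genotype. One was prepared with an anti-FLAG antibody, which captures PARIS, a zinc-finger repressor encoded by Zfp746, and the other with IgG. In CUT&Tag the antibody tethers a transposase to chromatin, which inserts sequencing adapters into the DNA nearby. The authors called peaks in the anti-FLAG library against the IgG library. The labels do not say which cells carry the FLAG-tagged protein, how many animals were pooled, or the animals' age. With 1 library per antibody there is no replicate error, no mouse without the tagged protein enters a comparison, and no test between conditions was possible. Signal of the IgG library was not used here, and no value at a peak can be set beside the background at the same place. Sequencing depth is unknown. Intervals given with shares and densities are 95% intervals, Wilson for shares and exact Poisson for densities. They cover counting error over peaks only, and neighbouring peaks are not independent.

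Rbfox proteins bind the RNA element GCAUG, which reads GCATG in DNA, in introns next to alternative exons and promote inclusion or skipping of the exon according to the side on which they bind. Rbfox1 is expressed in neurons, heart and skeletal muscle, Rbfox2 is expressed broadly, and Rbfox3 is the antigen known as NeuN, the standard marker of mature neurons. All of these genes are long, with several alternative first exons and very long introns before the exons that encode the RNA-binding domain.

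In the GENCODE M21 annotation of the mm10 build, Rbfox1 (ENSMUSG00000008658) spans 1526 kb of the plus strand at chr16:5885355-7411526 and has 8 transcripts. Rbfox2 (ENSMUSG00000033565) spans 228 kb of the minus strand at chr15:77078990-77307004 and has 15 transcripts. Rbfox3 (ENSMUSG00000025576) spans 422 kb of the minus strand at chr11:118489762-118911597 and has 10 transcripts. Positions along a gene are given below in kb from its 5′ end.

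The tallest peaks of each gene show where on the DNA the highest signal lay. Each peak in the list has a total signal, a maximum signal (the authors' highest coverage in the peak, in the authors' units) and a region over which the maximum was held. The sequences shown are 200 bp centred on that region, or the whole peak where it was narrower. They were read from the GRCm38.p6 assembly on the strand of the gene, and capitals mark the region of maximum signal, which fills the whole window in 1 of them. They are shown for those of the 3 highest peaks of each gene whose window overlapped no annotated exon.
Rbfox1 highest peak, intron 10, chr16:7329370-7329492: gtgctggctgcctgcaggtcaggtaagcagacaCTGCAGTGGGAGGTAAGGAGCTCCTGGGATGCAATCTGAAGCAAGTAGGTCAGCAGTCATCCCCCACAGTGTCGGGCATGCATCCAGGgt
Rbfox1 peak 2 by maximum, intron 1, chr16:5912136-5912335: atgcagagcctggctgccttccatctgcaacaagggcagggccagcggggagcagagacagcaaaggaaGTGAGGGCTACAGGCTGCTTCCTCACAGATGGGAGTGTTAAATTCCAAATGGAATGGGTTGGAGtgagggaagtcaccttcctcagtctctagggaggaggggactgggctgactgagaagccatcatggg
Rbfox1 peak 3 by maximum, beyond the 3′ end, chr16:7419697-7419896: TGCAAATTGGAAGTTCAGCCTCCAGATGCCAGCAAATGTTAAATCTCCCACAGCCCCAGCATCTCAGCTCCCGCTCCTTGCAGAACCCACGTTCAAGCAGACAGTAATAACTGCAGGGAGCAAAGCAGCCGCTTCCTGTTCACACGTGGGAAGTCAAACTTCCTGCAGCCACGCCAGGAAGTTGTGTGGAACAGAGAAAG
Rbfox2 peak 3 by maximum, intron 1, chr15:77257893-77258092: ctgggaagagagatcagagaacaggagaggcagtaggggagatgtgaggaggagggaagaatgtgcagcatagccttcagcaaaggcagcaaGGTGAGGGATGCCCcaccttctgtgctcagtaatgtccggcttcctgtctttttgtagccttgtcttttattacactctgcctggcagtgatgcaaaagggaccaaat
Rbfox3 highest peak, intron 2, chr11:118798096-118798295: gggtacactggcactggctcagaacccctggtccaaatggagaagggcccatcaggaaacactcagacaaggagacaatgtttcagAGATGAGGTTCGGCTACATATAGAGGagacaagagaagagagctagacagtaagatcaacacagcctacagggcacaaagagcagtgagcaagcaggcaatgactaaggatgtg
Rbfox3 peak 2 by maximum, intron 1, chr11:118881903-118882102: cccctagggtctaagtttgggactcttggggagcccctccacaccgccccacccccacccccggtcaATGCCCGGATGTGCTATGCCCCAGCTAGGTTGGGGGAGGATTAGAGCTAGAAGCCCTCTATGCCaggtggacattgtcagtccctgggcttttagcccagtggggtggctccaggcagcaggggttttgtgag
Rbfox3 peak 3 by maximum, upstream of the gene, chr11:118915414-118915613: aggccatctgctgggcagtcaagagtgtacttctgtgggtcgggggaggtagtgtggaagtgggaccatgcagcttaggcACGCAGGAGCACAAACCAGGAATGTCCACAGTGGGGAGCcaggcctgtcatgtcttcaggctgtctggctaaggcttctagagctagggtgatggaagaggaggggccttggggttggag

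The highest Rbfox3 peak, chr11:118798020-118799246, was 1227 bp wide with a maximum signal of 412. It lay 113.4 kb into the gene in intron 2, and its total signal of 185029 ranked 815 among all annotated peaks. The second, chr11:118881778-118883069 in intron 1, reached 356 over 1292 bp, and its total signal of 202980 ranked 610 and was the highest of the gene. The third, chr11:118915374-118916859, reached 309 over 1486 bp and lay 3.92 kb upstream of the gene. None of these peaks was at an annotated start of Rbfox3.

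In Rbfox2 the highest peaks were instead at starts inside the gene. The highest, chr15:77153396-77154547, reached 352 over 1152 bp and overlapped a cluster of transcript starts 153 kb from the 5′ end. The second, chr15:77245198-77246022, reached 220 over 825 bp and overlapped starts at 61.4 and 61.5 kb. The third, chr15:77256944-77258143 in intron 1, reached 208 over 1200 bp and had the highest total signal of the gene, 105101.

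The highest Rbfox1 peak was narrow: chr16:7329370-7329492 measured 123 bp, reached 276 and lay in intron 10, 1444 kb from the 5′ end. The peak with the next highest maximum, chr16:5910948-5912709 in intron 1, was also the widest of the gene at 1762 bp and had its highest total signal, 113577. It reached 250 and lay 26.9 kb from the 5′ end. The third, chr16:7419562-7419952, reached 211 over 391 bp and lay 8.27 kb beyond the 3′ end. The gene with the most assigned peaks thus had a lower highest maximum than either paralog.

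Each of 4 equal parts of every gene held peaks, but the ends of Rbfox2 and Rbfox3 were partly bare. The first 27.2 kb of Rbfox2 and the last 18.5 kb of Rbfox3 had no peak. The median position of peaks inside the gene was at 53.7% of its length in Rbfox1, 50.3% in Rbfox2 and 42.0% in Rbfox3. Over those parts, from the 5′ end, the numbers were 27, 27, 30 and 29 in Rbfox1. They were 4, 8, 7 and 6 in Rbfox2, and 25, 26, 19 and 25 in Rbfox3. These counts take every peak whose region of maximum signal is centred inside the gene, whichever gene it was assigned to, and they come to 113 for Rbfox1, 25 for Rbfox2 and 95 for Rbfox3.

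**Figure D1:**
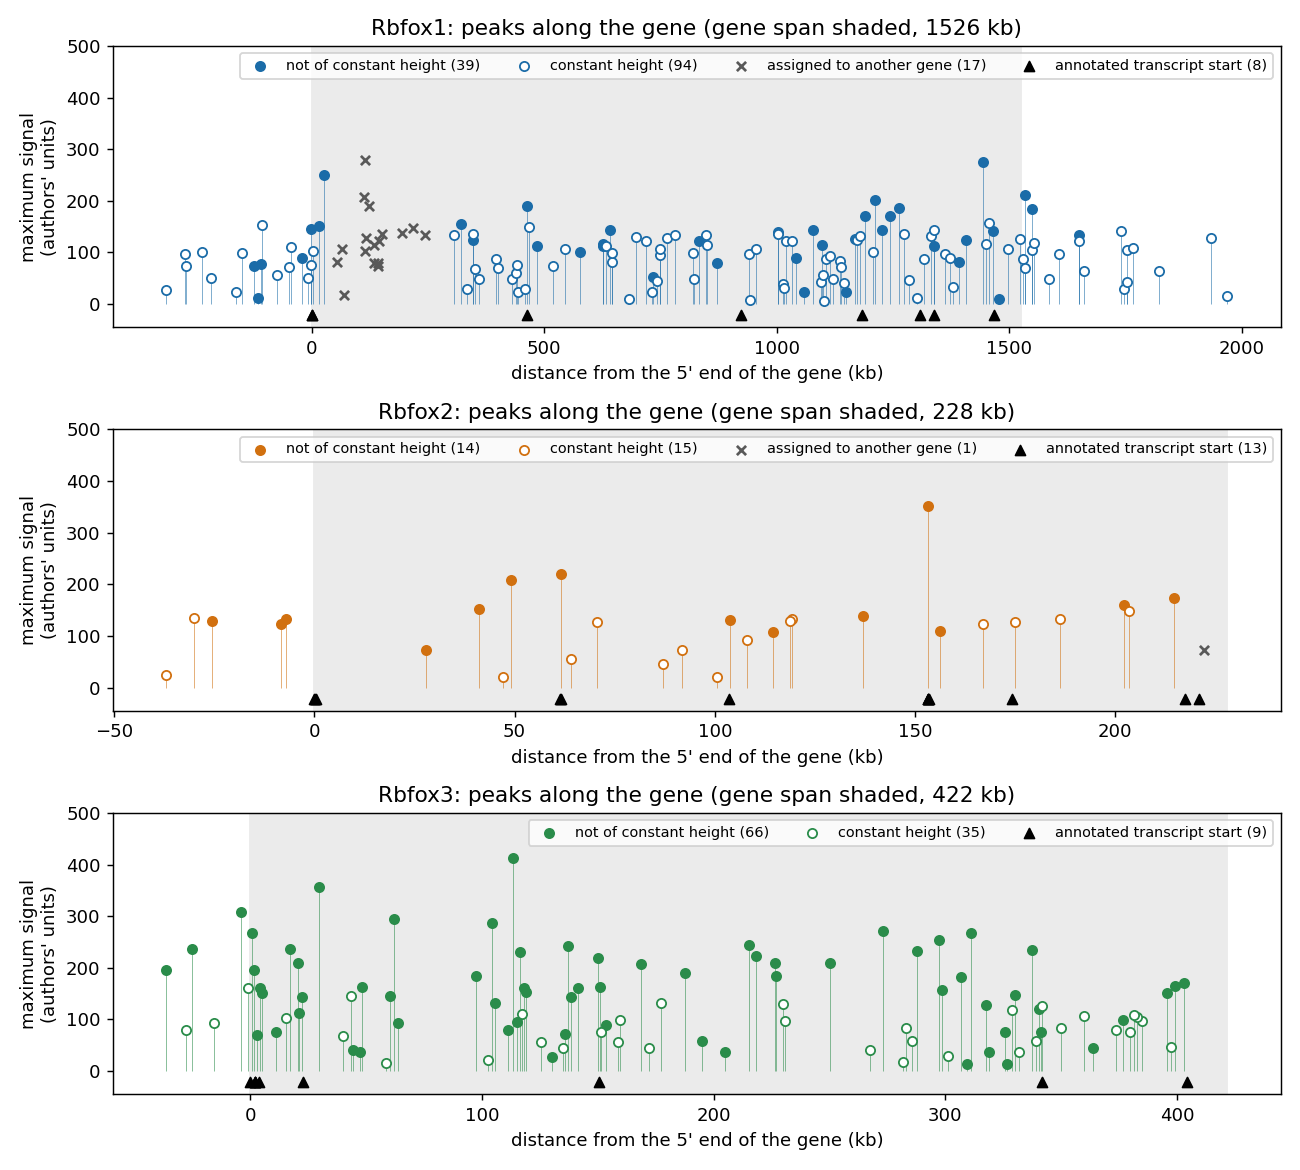
Peaks along Rbfox1, Rbfox2 and Rbfox3: the x axis is distance from the 5′ end in kb, the y axis the authors' maximum signal of each peak, circles are assigned peaks, crosses are peaks inside the gene that were assigned to another gene, and triangles are annotated transcript starts. Peaks lie in all 4 equal parts of each shaded gene but not in the first 27.2 kb of Rbfox2, the highest Rbfox2 peak (352) stands over starts at 153 kb, and the highest Rbfox3 peak (412) stands at 113.4 kb, away from any start.

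The spacing differed between the genes. Neighbouring peaks inside Rbfox1 were a median of 10.1 kb apart, against 7.14 kb in Rbfox2 and 2.42 kb in Rbfox3. In bins of 50 kb, the 31 bins of Rbfox1 held a median of 3 peaks and at most 10. The 5 bins of Rbfox2 held a median of 5 and at most 7, and the 9 bins of Rbfox3 a median of 11 and at most 17. The longest gap between neighbouring peaks was 68.5 kb in Rbfox1, 17.5 kb in Rbfox2 and 32.9 kb in Rbfox3. In Rbfox2 the 27.2 kb without a peak at the 5′ end was longer than any gap between its peaks. Peaks covered 3.06% of Rbfox1, 6.16% of Rbfox2 and 13.6% of Rbfox3. The order Rbfox3, Rbfox2, Rbfox1 held for the coverage and for the closeness of peaks. Gaps of at most 1 kb between neighbouring peaks numbered 12 in Rbfox1, 2 in Rbfox2 and 32 in Rbfox3. Merging peaks within 1 kb left 120, 26 and 69 assigned peaks, so the Rbfox3 numbers depend most on how peaks were split.

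Within Rbfox3, 2 of the 50-kb bins held 17 peaks each, the one from the 5′ end to 50 kb and the one from 100 to 150 kb. The bin between them held 5. The last bin, which is shorter than the others, held 1 peak, and the most downstream peak of the gene, chr11:118508216-118508937, was centred at 403.2 kb. In Rbfox1, 1 bin, from 250 to 300 kb, held no peak, and the fullest was that from 100 to 150 kb.

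The stretch of Rbfox1 around its fullest bin carried peaks that the annotation gave to another gene. Of the 20 peaks inside intron 1 of Rbfox1, the 17 that lay between 55.0 and 243.4 kb were assigned to 1700123O21Rik, a gene of unknown function. Their maximum signal ran from 17 to 279 with a median of 123, and 8 of them were not of constant height, a shape described below. The highest, chr16:5999872-6000394, reached 279 over 523 bp and was higher than any peak assigned to Rbfox1. In Rbfox2, 1 peak with a maximum of 72 was assigned to 1700109K24Rik.

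Assignment also reached far outside Rbfox1. Of its 133 peaks, 18 lay upstream of the gene, 96 in it and 19 beyond its 3′ end. The outermost were chr16:5572940-5573250, 312 kb upstream with a maximum of 27, and chr16:7854459-7855023, 443 kb beyond the 3′ end with a maximum of 15. Both were among the lowest peaks of the list, at percentiles 6.16 and 2.09 of maximum signal. Rbfox2 had 5 peaks upstream, the outermost at 37.0 kb with a maximum of 25. Rbfox3 had 6 upstream, the outermost 36.3 kb away with a maximum of 195. Neither had a peak beyond its 3′ end. All 24 family peaks (of 263) in intergenic sequence more than 100 kb from a start belonged to Rbfox1. Over all annotated peaks the number was 9782 of 99782. That share was similar to 24 of 263 for the pooled family but lower than 24 of 133 for Rbfox1 alone. Rbfox2 and Rbfox3 each had 0.

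Relative to their chromosomes, all of the family genes held more peaks per Mb. Rbfox1 had 74.0 peaks per Mb against 36.8 on chromosome 16, a ratio of 2.01 (1.66 to 2.42). Rbfox2 had 109.6 against 43.7 on chromosome 15, a ratio of 2.51 (1.62 to 3.71). Rbfox3 had 225.2 against 56.6 on chromosome 11, a ratio of 3.98 (3.22 to 4.86). The intervals of Rbfox1 and Rbfox3 did not overlap, while that of Rbfox2 overlapped both.

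A ratio above 1 was common among long genes: 53.7% of 2490 protein-coding genes of at least 100 kb had one, with a median of 1.07 and quartiles of 0.603 and 1.79. Among these genes Rbfox1 stood at percentile 79.6, Rbfox2 at 88.5 and Rbfox3 at 97.6. The ratio of Rbfox3 depended on which peaks were counted. It was 3.14 with peaks within 1 kb merged, below the interval given above. It was 6.63 without peaks of constant height, percentile 98.96 of the long genes, and 7.32 for the top 10% of peaks by maximum signal. Without peaks of constant height, Rbfox1 had a ratio of 1.94 and Rbfox2 of 2.94.

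**Figure D2:**
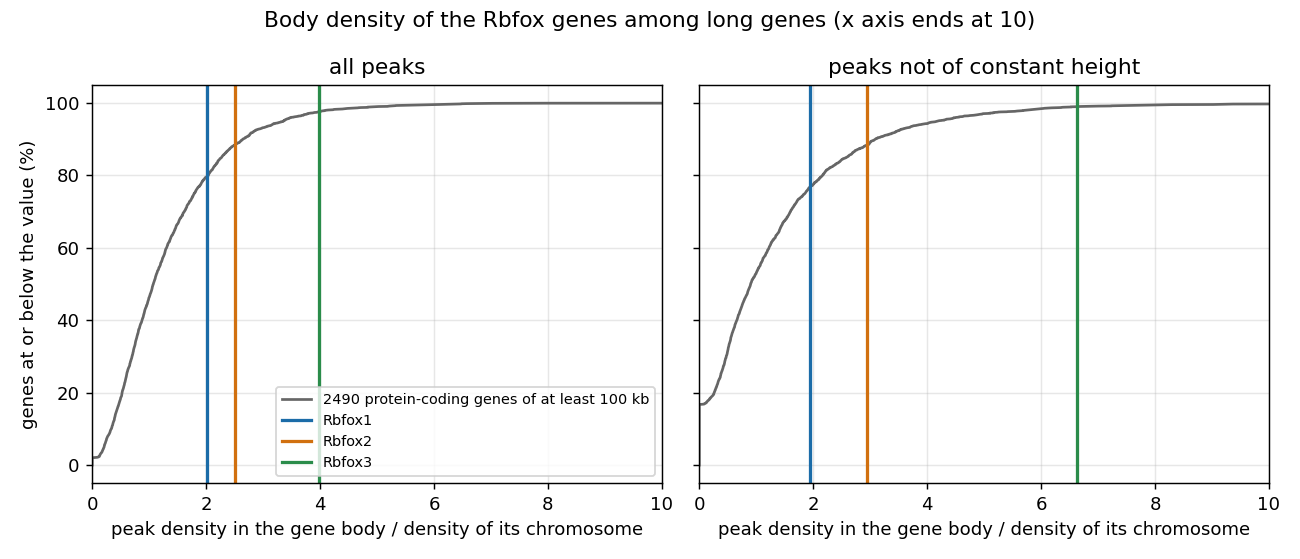
Peak density in the gene body divided by that of its chromosome: the grey curve gives the percent of 2490 long protein-coding genes at or below each value, and vertical lines mark the Rbfox genes, for all peaks on the left and for peaks not of constant height on the right. Rbfox3 moves from 3.98 to 6.63 between the panels, while Rbfox1 stays near 2 (2.01 and 1.94).

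By the same measure, the long genes nearest to Rbfox1 were Grik4 (ratio 2.01, 41 peaks), Kat6b (2.02, 13 peaks) and Mcf2 (2.02, 3 peaks). Those nearest to Rbfox2 were Hivep2, Susd1 and Rapgef1, each with a ratio of 2.51. Those nearest to Rbfox3 were Adcy5 (3.97), Trim2 (3.96) and Tcf20 (3.96). This likeness is of 1 number in 1 library.

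Most family peaks were intronic. By the authors' classes, 185 of 263 peaks (70.3%) were in introns, against 38.0% of all annotated peaks. A further 45 (17.1%) were distal intergenic, against 31.9%, and 31 (11.8%) were promoter peaks within 3 kb of a transcription start site (TSS), against 24.6%. Only 2 peaks, both assigned to Rbfox3, were in an exon or UTR, against 5.37% of all peaks. Of these, 1 (chr11:118610040-118610525) was in a 5′ UTR. The other (chr11:118792677-118793797) was in an exon of a transcript not annotated to Rbfox3, inside intron 2 of Rbfox3. These genes are mostly intron by length, and the shares were not adjusted for that. Rbfox1 had 92 intron peaks and 35 distal intergenic ones, Rbfox2 had 16 and 5, and Rbfox3 had 77 and 5.

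The long introns at the 5′ side carried most of the peaks within each gene. On the Rbfox1 transcript from the outermost start, introns 1 to 4 together measure 1338 kb and held 101 peaks, or 7.55 per 100 kb (6.15 to 9.17). The other 7 introns held 9 peaks in 127.9 kb, or 7.04 per 100 kb (3.22 to 13.4). Intron 4, the longest at 415.1 kb, held 39 peaks, 9.40 per 100 kb, and introns 1, 2 and 3 held between 6.37 and 6.95 per 100 kb. Per unit length, then, the long and the shorter introns of Rbfox1 held similar numbers of peaks, within wide intervals.

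In Rbfox2 the first 3 introns held 21 peaks in 189.0 kb, or 11.1 per 100 kb (6.88 to 17.0), and the other 10 introns held 4 in 32.0 kb, or 12.5 per 100 kb (3.40 to 32.0). In Rbfox3 the first 4 introns held 93 peaks in 403.0 kb, or 23.1 per 100 kb (18.6 to 28.3). Intron 4 of Rbfox3 is short, at 7.39 kb, and held 2 of these peaks, so the count for the other introns depends on this grouping. Introns 1, 2 and 3 of Rbfox3 stood close to each other at 20.4, 24.9 and 22.9 per 100 kb. The other 9 introns of Rbfox3 held 0 peaks, but they measure 13.7 kb in all, and a count of 0 there allows up to 27.0 per 100 kb. A lower density in the 3′ introns of Rbfox3 was therefore not detectable.

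**Figure D3:**
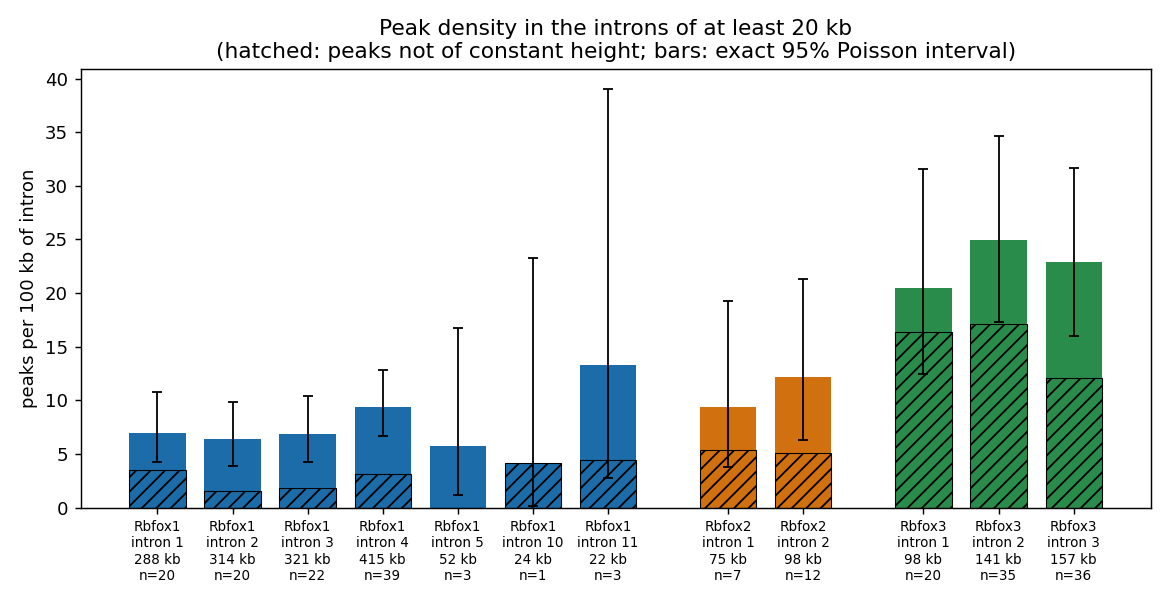
Peaks per 100 kb in each intron of at least 20 kb: the height of a bar is the density of all peaks, the hatched part that of peaks not of constant height, and error bars are exact 95% Poisson intervals that cover counting error only. The long introns of Rbfox3 stand between 20.4 and 24.9 and introns 1 to 4 of Rbfox1 between 6.37 and 9.40.

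Peaks differed in shape. A peak was called of constant height when its total signal was at least 99% of the maximum signal times the width, as in a rectangle. Of all annotated peaks, 36.7% were not of constant height. The number was 39 of 133 in Rbfox1 (29.3%, 22.3 to 37.6), 14 of 29 in Rbfox2 (48.3%, 31.4 to 65.6) and 66 of 101 in Rbfox3 (65.3%, 55.7 to 73.9). The interval of Rbfox2 included the share of all peaks, that of Rbfox3 lay above it, and that of Rbfox1 included it.

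Among intron peaks alone, Rbfox3 again had the higher share than Rbfox1. Within introns, 28 of 92 Rbfox1 peaks (30.4%) and 49 of 77 Rbfox3 peaks (63.6%, 52.5 to 73.5) were not of constant height, against 34.3% of all intron peaks. In Rbfox2 the number was 6 of 16 (37.5%, 18.5 to 61.4). Among promoter peaks the numbers were 4 of 6 in Rbfox1, 5 of 8 in Rbfox2 and 13 of 17 in Rbfox3, against 48.8% of all promoter peaks. Among distal intergenic peaks, Rbfox1 had 7 of 35, and Rbfox2 and Rbfox3 had 3 of 5 each, against 31.9%. In Rbfox3, 16 of 20 peaks of intron 1, 24 of 35 of intron 2 and 19 of 36 of intron 3 were not of constant height.

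The maximum signal of Rbfox1 peaks ran from 6 to 276 with a median of 98 and quartiles of 57 and 127. That of Rbfox2 ran from 20 to 352 with a median of 128 and quartiles of 93 and 139. That of Rbfox3 ran from 14 to 412 with a median of 121 and quartiles of 75 and 185. All annotated peaks had a median of 101 and quartiles of 66 and 135. The ranges of the genes overlapped over most of their length, and the upper quartile of Rbfox3 stood apart more than its median.

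A maximum signal above the 90th percentile of the list, 189, was reached by 9.94% of all annotated peaks. In Rbfox3, 24 of 101 peaks passed it (23.8%, 16.5 to 32.9), against 5 of 133 in Rbfox1 (3.76%, 1.62 to 8.50) and 3 of 29 in Rbfox2 (10.3%, 3.58 to 26.4). The interval of Rbfox3 lay above the share of all peaks and that of Rbfox1 below it. Within each gene the peaks not of constant height had the higher median maximum, with 124, 136 and 161 in Rbfox1, Rbfox2 and Rbfox3. The constant-height peaks had medians of 88.5, 124 and 80. In the whole list these medians were 134 and 91. Median peak width was 355 bp in Rbfox1, 491 bp in Rbfox2 and 528 bp in Rbfox3, against 363 bp in the list. The widest family peak, chr11:118790823-118792608 in an intron of Rbfox3, measured 1786 bp with a maximum of 154.

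**Figure D4:**
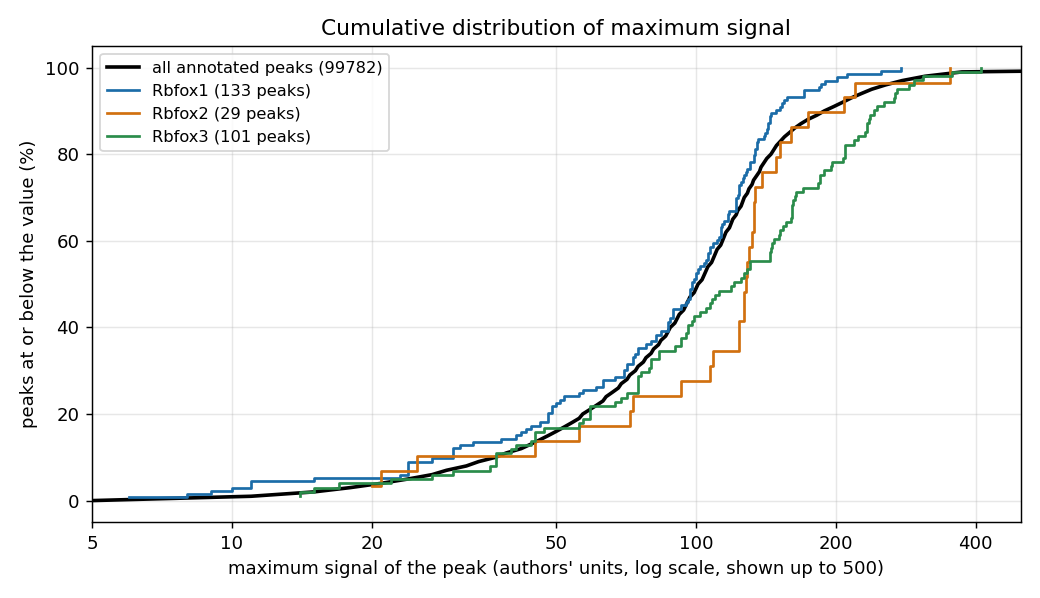
Cumulative percent of peaks at or below each maximum signal (x axis in the authors' units on a log scale), for all annotated peaks in black and for the peaks of each Rbfox gene in colour. In the upper part the Rbfox1 curve runs to the left of that of all peaks, with 3.76% of its peaks above 189 against 9.94%, and ends at 276, while the Rbfox3 curve runs to the right, with 23.8% above 189.

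At transcript starts the genes differed in another way. Of all annotated peaks, 15.3% lay within 1 kb of a TSS by the authors' distance. The number was 4 of 133 in Rbfox1 (3.01%, 1.18 to 7.48), 4 of 29 in Rbfox2 (13.8%, 5.50 to 30.6) and 12 of 101 in Rbfox3 (11.9%, 6.93 to 19.6). In none of the 263 did the region of maximum signal cover the start itself, which it did in 3021 of the 99782 annotated peaks. All 3021 were among the 24550 promoter peaks of the list, and the family had 31 promoter peaks. Whether the count of 0 departs from the list was not tested. The region of maximum signal came within 2 and 4 bp of a start in Rbfox2 and within 14 bp of one in Rbfox1. Counted from the starts, 38.0% of 93504 distinct starts of protein-coding genes had a peak within 1 kb and 18.3% were overlapped by one. In Rbfox1, 4 of 8 starts had a peak within 1 kb and 2 were overlapped. In Rbfox2, 8 of 13 had one and 7 were overlapped. In Rbfox3, 9 of 9 had one and 2 were overlapped. Starts that lie close together share a peak, so these are not independent counts. They were also not adjusted for the density of peaks in each gene, which was highest in Rbfox3.

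The 5′ end of Rbfox1 lay under a peak. A 499 bp peak, chr16:5885209-5885707, with a maximum of 145 overlapped the outermost start and the one 0.232 kb inside it. The start at 463.8 kb had a peak 509 bp away, chr16:6347837-6348629, with a maximum of 190. The start at 1339 kb had a 74 bp peak of constant height 556 bp away, with a maximum of 144, and a second peak, chr16:7223066-7223495, with a maximum of 113. The other starts, at 923.9, 1184, 1308 and 1468 kb, had their nearest peak 16190, 5470, 5169 and 2077 bp away.

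Rbfox2 showed the reverse order. Its outermost starts, at 0, 0.076 and 0.399 kb, had no peak within 1 kb, and the nearest, chr15:77313902-77314373 with a maximum of 133, lay 6898 to 7297 bp upstream. Its internal starts were overlapped by 3 peaks that were not of constant height. These peaks stood at the starts at 61.4 and 61.5 kb (maximum 220), at 103.6 kb (maximum 130, 882 bp wide) and at 153.2 to 153.4 kb (maximum 352). The start at 174.2 kb had a constant-height peak with a maximum of 127 at 591 bp, and the last starts, at 217.3 and 220.8 kb, had their nearest peak 2250 and 1375 bp away.

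In Rbfox3, 5 peaks lay around the outermost starts, between 0.893 kb upstream and 4.03 kb inside the gene, with maxima of 161, 268, 196, 69 and 160. The outermost start had its nearest peak 622 bp away, chr11:118910518-118910975 with a maximum of 268. The starts near 2 kb, which include that of the transcript used above for intron numbers, had a peak 87 to 109 bp away, chr11:118909659-118910130, with a maximum of 196. The start at 22.9 kb had a peak 170 bp away with a maximum of 144. The start at 150.6 kb was overlapped by chr11:118760402-118761328, 927 bp wide with a maximum of 162, beside a taller 209 bp peak upstream of it with a maximum of 219. The start at 341.7 kb was overlapped by chr11:118569905-118570410, with a maximum of 76. A taller peak of constant height, chr11:118569582-118569838 with a maximum of 125, lay 72 bp inside that start. The last start, at 404.2 kb, had a peak 863 bp away with a maximum of 170.

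The sequence before the starts did not sort them. In the 200 bp before each start, CG dinucleotides numbered 20 to 35 at the 3 outermost Rbfox2 starts, which had no peak within 1 kb, and 2 to 8 at the internal Rbfox2 starts that were overlapped. In Rbfox1 the overlapped starts had 16 and 21, and the 4 starts with no peak within 1 kb had 1 to 5. In Rbfox3, where all starts had a peak within 1 kb, the number ran from 2 to 22. Over 32851 promoters of the RefSeq table of GRCm38.p6 the median was 5, with quartiles of 2 and 13. These are descriptions of few starts per gene. The 150 bases before 3 starts that a peak overlapped and 1 that had no peak within 1 kb are shown on the strand of the gene, read from GRCm38.p6, with CG in capitals and no annotated exon in the window.
Rbfox2 start at 103.6 kb, overlapped, chr15:77203437-77203586: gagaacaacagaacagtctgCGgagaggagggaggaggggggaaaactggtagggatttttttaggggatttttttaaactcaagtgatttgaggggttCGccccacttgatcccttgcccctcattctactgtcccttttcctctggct
Rbfox3 start at 150.6 kb, overlapped, chr11:118761042-118761191: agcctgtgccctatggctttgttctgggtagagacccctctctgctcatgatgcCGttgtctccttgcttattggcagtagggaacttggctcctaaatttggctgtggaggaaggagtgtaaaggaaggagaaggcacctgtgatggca
Rbfox3 start at 341.7 kb, overlapped, chr11:118569911-118570060: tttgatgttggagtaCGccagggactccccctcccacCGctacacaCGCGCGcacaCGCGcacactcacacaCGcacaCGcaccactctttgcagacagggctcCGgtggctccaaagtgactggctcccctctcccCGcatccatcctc
Rbfox1 start at 1308 kb, nearest peak 5169 bp away, chr16:7193597-7193746: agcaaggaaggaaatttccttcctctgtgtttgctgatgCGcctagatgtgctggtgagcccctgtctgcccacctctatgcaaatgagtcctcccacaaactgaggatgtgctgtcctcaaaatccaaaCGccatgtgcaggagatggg

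These windows hold 2, 1, 11 and 2 CG dinucleotides. The one with 11 lies at the peak with the lowest maximum of those that overlap a start, 76. The same start also has the constant-height peak with a maximum of 125, 72 bp inside it.

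**Figure D5:**
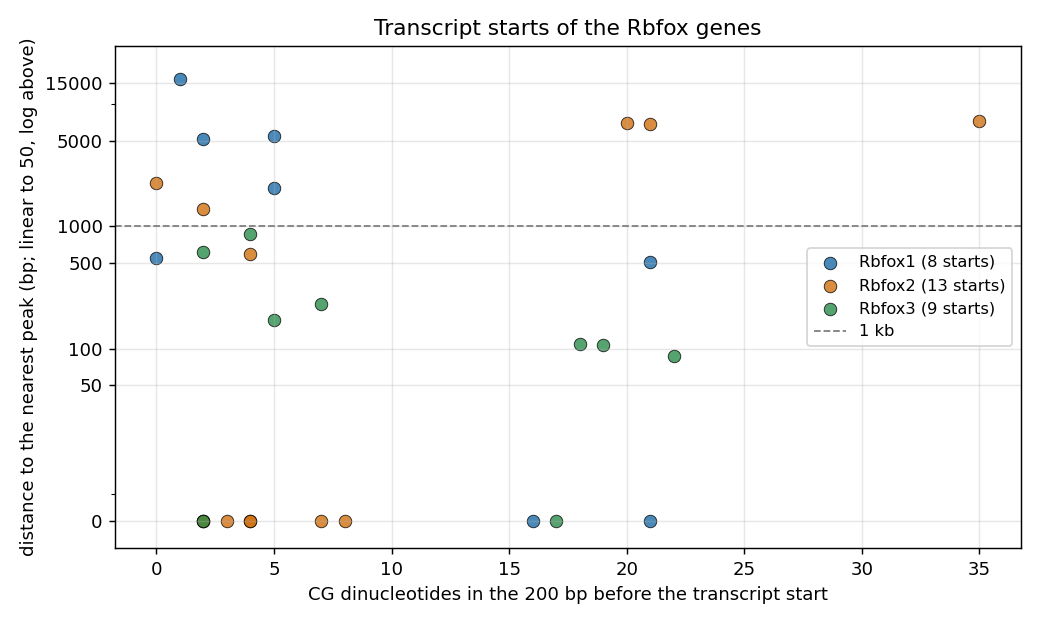
Each point is a distinct annotated transcript start: the x axis is the number of CG dinucleotides in the 200 bp before it, and the y axis the distance to the nearest peak in bp (linear to 50 bp, log above), with a dashed line at 1 kb. The CG-rich starts of Rbfox2 lie at 6898 bp or more, those of Rbfox3 and Rbfox1 below 1 kb, and starts poor in CG lie at all distances.

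The windows of the family differed in base composition. The GC content of the 200 bp windows was 45.1% ± 6.59 in Rbfox1 (SD over 133 windows), 48.6% ± 5.24 in Rbfox2 (29) and 54.2% ± 5.41 in Rbfox3 (101), against 49.0% ± 8.92 over all peaks and 47.3% ± 7.30 over intron peaks. Windows of 1 gene share its surroundings and are not replicates. The GC order matched that of density and of the share of peaks not of constant height, and the part of GC content in those was not tested.

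GCATG, searched on both strands and so also as CATGC, was in 88 of 263 windows (33.5%, interval from 28.03 to 39.36), against 29.6% of all peak windows of that length and 32.0% of intron windows. By gene it was in 50 of 133 Rbfox1 windows (37.6%), 8 of 29 Rbfox2 windows (27.6%) and 30 of 101 Rbfox3 windows (29.7%). The longer form TGCATG, which contains GCATG, was in 35 windows (13.3%), against 11.5% of all. The family share was thus close to that of intron peaks at large at this window length. In windows of 400 bp the gap to all peaks was wider, 59.7% against 49.98%. The share of intron windows at that length is not given here, and the family was more intronic than the list. In 200 bp windows without peaks of constant height the family share was 27.7%. Of the windows shown above, that of the highest Rbfox1 peak holds GCATG on the strand of the gene. That of the Rbfox3 peak upstream of the gene holds it only as CATGC, on the other strand. The binding of Rbfox proteins to this element is to RNA, and a match in DNA is a description.

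TATTTTT or TATTTTG, the forms of the insulin response sequence reported for PARIS, were searched on both strands and do not contain GCATG. One of them was in 19 of 263 windows (7.22%, interval from 4.67 to 11.01), against 9.95% of all peak windows and 10.8% of intron windows. By gene the number was 14 in Rbfox1 (10.5%), 1 in Rbfox2 (3.45%) and 4 in Rbfox3 (3.96%, 1.55 to 9.74). Rbfox1, whose windows had the lowest GC content, had the highest share of this AT-rich element. None of the tall-peak windows printed above holds either form.

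Genes that act with Rbfox proteins or are regulated by them were looked at from lists. Of all protein-coding genes, 41.6% had an assigned peak within 1 kb of a TSS. Rbfox proteins work in a large assembly of splicing regulators, and 4 of 7 listed partners had such a peak. These were Hnrnph1 (maximum 345), Hnrnpm (250), Matr3 (205) and Ddx5 (135, of constant height). Hnrnph1, Hnrnpm and Hnrnpc are hnRNP proteins that bind nascent RNA, Matr3 is a nuclear matrix protein that binds RNA, and Ddx5 is an RNA helicase. Hnrnpc and Hnrnpul2 had their nearest peak 2765 and 2244 bp from a TSS, and Ilf2 had no assigned peak. The partners had a median of 2 assigned peaks, the same as all protein-coding genes. They are short, from 8.83 kb (Ddx5) to 40.6 kb (Hnrnpm), against 228 kb in Rbfox2, the shortest family gene. The counts were not adjusted for length, so they are no contrast with the family.

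Of 6 genes with exons or UTRs reported as regulated by Rbfox proteins, 4 had a peak within 1 kb of a TSS. They were Epb41 (maximum 315), which encodes a cytoskeletal protein, Grin1 (224), an NMDA receptor subunit, Vamp1 (197), a synaptic vesicle protein, and Cacna1c (196), an L-type calcium channel. Snap25 had its nearest peak at 1001 bp, just outside the limit, and Fn1 at 8492 bp. The median was 7.5 assigned peaks, from 1 in Fn1 and Vamp1 to 60 in Cacna1c, which spans 609 kb. With 7 and 6 genes listed, counts of 4 say little about a departure from 41.6%.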

How the data were processed

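Per the labels' protocols, the authors' paired-end reads were trimmed and mapped to mm10 by Bowtie2. Duplicates and reads of low quality were dropped, and SEACR called the peaks with IgG as control. Versions, the SEACR normalization and stringency, and the tool behind the annotation are not given in the sources used here. The deposited peak list gives the total and maximum signal of each of 99797 peaks, in whole numbers of unstated scaling. The deposited annotation covers 99782 of them, and its copy of the total signal was equal for 100%. Values were therefore compared only within this list, and sequencing depth is unknown.

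The peaks were those whose assigned symbol is Rbfox1, Rbfox2 or Rbfox3. Genes, starts and introns came from GENCODE M21, sequences from GRCm38.p6, and promoters from RefSeq, whose table matched 2 of the 3 genes. The intron named by the authors and that of GENCODE were the same for 181 of 181 peaks checked. A peak was placed by the middle of its region of maximum signal. Peaks named singly were those within 1 kb of a TSS, the 3 highest by maximum signal, the highest by total signal, the widest and the outermost. Like genes were the 3 long genes nearest in density. The lists of 7 partner and 6 regulated genes, and the Rbfox genes themselves, were chosen with earlier results of these data known. A few other genes first listed are not reported here. Software was Python 3.11.15 with pandas 2.3.3, NumPy 2.4.6, SciPy 1.17.1, pysam 0.24.0 and matplotlib 3.10.9. The counting steps were tested on simulated peaks.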

Additional observations from a re-analysis of the deposited data

How the results depend on the processing

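Of 48 alternatives to 14 results, 34 kept the value within its counting interval or, for a count of peaks, within 1.5 times, 14 did not, and no result has a replicate to set these against. Keeping only peaks with a maximum above the median of the list left 62 in Rbfox1 and 58 in Rbfox3, fewer by construction. With the top 10% by maximum signal, the body density over the chromosome was 1.41 in Rbfox1 and 7.32 in Rbfox3. In Rbfox3 it was 3.14 with peaks within 1 kb merged and 6.63 with constant-height peaks left out. Leaving those out gave median maxima of 124, 136 and 161 in Rbfox1, Rbfox2 and Rbfox3, and GCATG in 27.7% of family windows. Among peaks at least 200 bp wide, Rbfox1 had a median maximum of 85.5 and 38.5% not of constant height. Windows of 400 bp, longer by construction, held GCATG in 59.7% of the family against 49.98% of all peaks, and TATTTTT or TATTTTG in 16.7% against 19.3%. For the other changes, and for the wider gap in GCATG between the family and all peaks at 400 bp, the cause was not tested. No paired analysis was possible because each antibody has 1 library. The number of peaks per gene limits the precision of every share, most of all in Rbfox2 with 29.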
